A study of Homo sapiens with 4 samples.

Results

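The 31 cell cycle genes described here were taken as a list of named genes, out of 19618 protein-coding genes on chromosomes 1 to 22 and X. Their peaks were those of the ATAC-seq peak lists that lay nearest to one of their protein-coding transcription start sites (TSSs) in GENCODE release 44, within 100 kb. The cells were MCF10A, a non-transformed human mammary epithelial line, transduced with tet-inducible TAZ-4SA, a constitutively active form of the transcriptional coactivator TAZ. Cells of the same transduced line were left without doxycycline (No Dox) or given 0.05 µg/mL Dox for 72 h (Dox), with 2 replicates per condition and 50000 cells in each transposition. ATAC-seq inserts adapters into accessible DNA, so a peak marks open chromatin, and a peak is no measure of transcription. The authors pooled the replicates before they called peaks, so each condition has 1 list, with no spread between replicates, no p-value and no known depth per sample.

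The cell cycle runs on a few sets of genes that act in turn. Cyclins D and E switch on the kinases that release E2F transcription factors in G1, E2F then drives the genes that license and copy DNA in S phase, and cyclins A and B with CDK1 start mitosis, where spindle checkpoint proteins hold the cell until chromosomes are attached. The promoters of G1 and S phase genes are known for E2F sites. Those of G2 and M phase genes are known for the cell cycle genes homology region (CHR) and for CCAAT boxes, which bind the MuvB complexes and NF-Y. TAZ acts through TEAD factors, which bind their own motif and often sit in enhancers beside AP-1.

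The promoter sequences are shown first because the lists are read against them. The letters sought on both strands were TTTCCCGC and TTTGGCGC for E2F, TTTGAA and TTCGAA for the CHR, CCAAT for NF-Y, ACATTCC and GCATTCC for TEAD, and TGACTCA and TGAGTCA for AP-1. A table of RefSeq promoters (GRCh38.p14, 250 bases before to 50 after the TSS) held 23 of the 31 genes. CCND1, CCNE2, CDK2, MCM4, MCM5, AURKA, BIRC5 and TTK were not among them. Positions are counted from the TSS base as 0 and give the leftmost base of the match. Below, capitals mark E2F, CHR and CCAAT letters in the gene's own direction, and a match on the opposite strand reads as its reverse complement, so a CCAAT box there reads ATTGG.

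The following sequences hold an E2F match and stand for the G1 and S phase genes. CDC25A, E2F1, E2F2, CDC6 and MCM6 have it at -44, -20, -42, 7 and -90. All lie under a promoter peak of both lists except E2F2, which has no promoter peak in either.
CDC25A (chr3:48188403-48188527, minus strand): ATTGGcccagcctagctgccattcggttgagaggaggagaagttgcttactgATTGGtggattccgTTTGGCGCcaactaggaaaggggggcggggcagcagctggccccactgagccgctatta
E2F1 (chr20:33686371-33686495, minus strand): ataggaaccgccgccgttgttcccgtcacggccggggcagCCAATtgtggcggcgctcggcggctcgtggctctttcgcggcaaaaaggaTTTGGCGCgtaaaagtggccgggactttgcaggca
E2F2 (chr1:23531219-23531343, minus strand): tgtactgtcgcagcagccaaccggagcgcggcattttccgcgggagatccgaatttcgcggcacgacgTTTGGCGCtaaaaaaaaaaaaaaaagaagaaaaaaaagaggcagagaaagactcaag
CDC6 (chr17:40287769-40287893, plus strand): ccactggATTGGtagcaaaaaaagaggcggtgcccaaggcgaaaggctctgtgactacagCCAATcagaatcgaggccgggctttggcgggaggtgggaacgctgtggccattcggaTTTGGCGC
MCM6 (chr2:135876429-135876553, minus strand): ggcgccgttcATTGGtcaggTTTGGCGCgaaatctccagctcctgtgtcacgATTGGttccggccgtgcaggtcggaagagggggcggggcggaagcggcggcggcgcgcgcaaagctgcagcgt

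The next sequences hold a CHR match and stand for the genes of G2 and mitosis, all under a promoter peak of both lists. The CHR lies at -29 in CCNB2 and PLK1, at 1 in BUB1, at -23 in BUB1B and at -65 in CDC20. MKI67 has it at -47 and again at -29, where its last base is also part of a CCAAT box on the opposite strand, so the capitals run together.
CCNB2 (chr15:59105036-59105160, plus strand): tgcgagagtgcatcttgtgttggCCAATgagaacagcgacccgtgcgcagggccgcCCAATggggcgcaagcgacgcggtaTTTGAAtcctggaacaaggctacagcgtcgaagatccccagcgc
PLK1 (chr16:23678779-23678903, plus strand): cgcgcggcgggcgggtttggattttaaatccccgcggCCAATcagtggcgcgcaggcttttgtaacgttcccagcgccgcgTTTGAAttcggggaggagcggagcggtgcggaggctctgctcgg
BUB1 (chr2:110678049-110678173, minus strand): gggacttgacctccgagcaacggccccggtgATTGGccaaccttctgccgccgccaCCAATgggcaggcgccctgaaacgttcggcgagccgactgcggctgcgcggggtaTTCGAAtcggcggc
BUB1B (chr15:40160959-40161083, plus strand): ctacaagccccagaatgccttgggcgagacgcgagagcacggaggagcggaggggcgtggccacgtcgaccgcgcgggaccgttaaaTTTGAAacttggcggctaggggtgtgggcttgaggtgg
CDC20 (chr1:43358871-43358995, plus strand): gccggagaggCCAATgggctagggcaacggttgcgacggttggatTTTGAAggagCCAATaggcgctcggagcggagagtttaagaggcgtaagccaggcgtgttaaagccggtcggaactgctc
MKI67 (chr10:128126409-128126533, minus strand): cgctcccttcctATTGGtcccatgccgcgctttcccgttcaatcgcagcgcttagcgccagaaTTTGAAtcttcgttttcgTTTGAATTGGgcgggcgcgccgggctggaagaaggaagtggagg

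Counted over the 23 promoters, an E2F match was in 8 (34.8%), a CHR match in 9 (39.1%) and a CCAAT box in 19 (82.6%). Over all 15277 coding promoters of the table the shares were 3.10%, 13.4% and 36.5%. The matches differed with the role of the genes, as counts without a test. E2F letters were in 5 of 8 promoters of replication genes and in both E2F genes, and in 0 of the 5 promoters of mitotic kinases, checkpoint and exit genes. CHR letters were in 4 of those 5 mitotic promoters and in both TOP2A and MKI67, and in 1 of 8 replication promoters. Of the promoters of cyclin A and mitotic CDK 2 of 4 held CHR letters (CCNA2 and CCNB1 did not), and of the 2 G1 promoters CDC25A held E2F letters and CCNE1 did not. CCAAT boxes began between -60 and -31 in 11 of the 23 promoters (47.8%), against 7.97% of all promoters, and between -120 and -91 in 12 (52.2%), against 7.40%. No TEAD and no AP-1 match lay in any of the 23, where 5.23% and 3.69% of all promoters hold one. At shares this low, 0 among 23 promoters does not set these genes apart. Such a match is a description of letters, not of a bound factor.

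**Figure D1:**
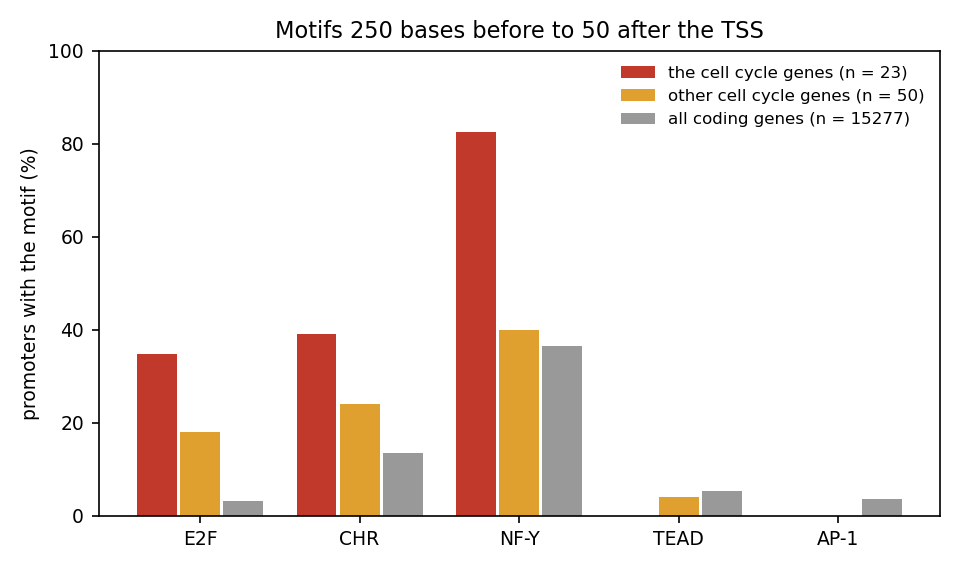
Percent of promoters (y axis) that hold each motif (x axis) in the RefSeq window, for the 23 cell cycle genes, 50 other cell cycle genes and 15277 coding genes. The cell cycle genes stand highest for E2F, CHR and NF-Y (34.8%, 39.1% and 82.6%) and are at 0 for TEAD and AP-1.

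Nearly all of the 31 promoters were open both with and without Dox. A promoter peak here is a peak that overlaps the 1 kb on either side of a coding TSS. Such a peak was in both lists for 28 genes (90.3%), against 63.6% of all coding genes. It was in the Dox list alone for 1 gene, BIRC5 (5.75% of all coding genes), in the No Dox list alone for 0 genes (3.98%), and in neither for AURKB and E2F2 (26.7%). In 25 of the 28 genes the summit lay within 250 bp of the TSS of the canonical transcript in both lists.

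BIRC5 encodes survivin, a subunit of the chromosomal passenger complex and an inhibitor of apoptosis. Its Dox peak covered the TSS at chr17:78214188-78214492, with a fold of 3.84 over background, and the nearest No Dox peak lay 26.8 kb away. The fold is the authors' pooled value, and folds came in steps of 0.226 (Dox list) and 0.212 (No Dox list), to within 0.0017 and 0.0019 of a step. The lowest peaks stood at 12 steps in both lists and the BIRC5 peak at 17, a few steps above them. It lay at the 44.8th percentile of all Dox peaks and at the 9.29th of the Dox promoter folds, so it was low for a promoter. AURKB, the kinase of the same complex, had its nearest peaks 11.3 kb (Dox) and 10.8 kb (No Dox) from its TSS. E2F2 had its nearest Dox peak at 5.98 kb and its nearest No Dox peak at 2.76 kb, both within the gene.

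The height of the open promoters differed far more between genes than between conditions. The fold ran from 3.84 (CCND1 and CDK2) to 19.9 (TTK) in Dox, and from 3.60 (MCM5) to 25.8 (AURKA) in No Dox. To compare conditions, the log2 of the Dox over the No Dox fold was taken at each promoter, and the median of all 12474 coding genes with both peaks (-0.11) was subtracted, since the lists differ in background. This value is called the relative log2 difference below. Its median over the 28 genes was 0.05, with 16 genes above 0 and 12 below, and it ran from -0.63 to 0.44. Over all 12474 genes 25% lay below -0.23 and 25% above 0.27.

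With 1 list per condition, a gene was set apart when its relative log2 difference was at least 0.5 in size, a factor of 1.41. At or above 0.5 there were 0 of the 28 genes (11% of all coding genes), and at or below -0.5 there were 4, or 14.3% (7.46% of all coding genes). These 4 were CCNE2, MKI67, AURKA and CCNB2, all with the lower fold in Dox. An interval for counting error alone was also formed, taking 1 step of the fold as 1 unit of signal. It lay above 0 for 0 genes (3.04% of all) and below 0 for 3 (5.23% of all), CCNE2, MKI67 and AURKA. In a bulk sample, fewer cells with an open promoter and a less open promoter in each cell cannot be told apart.

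**Figure D2:**
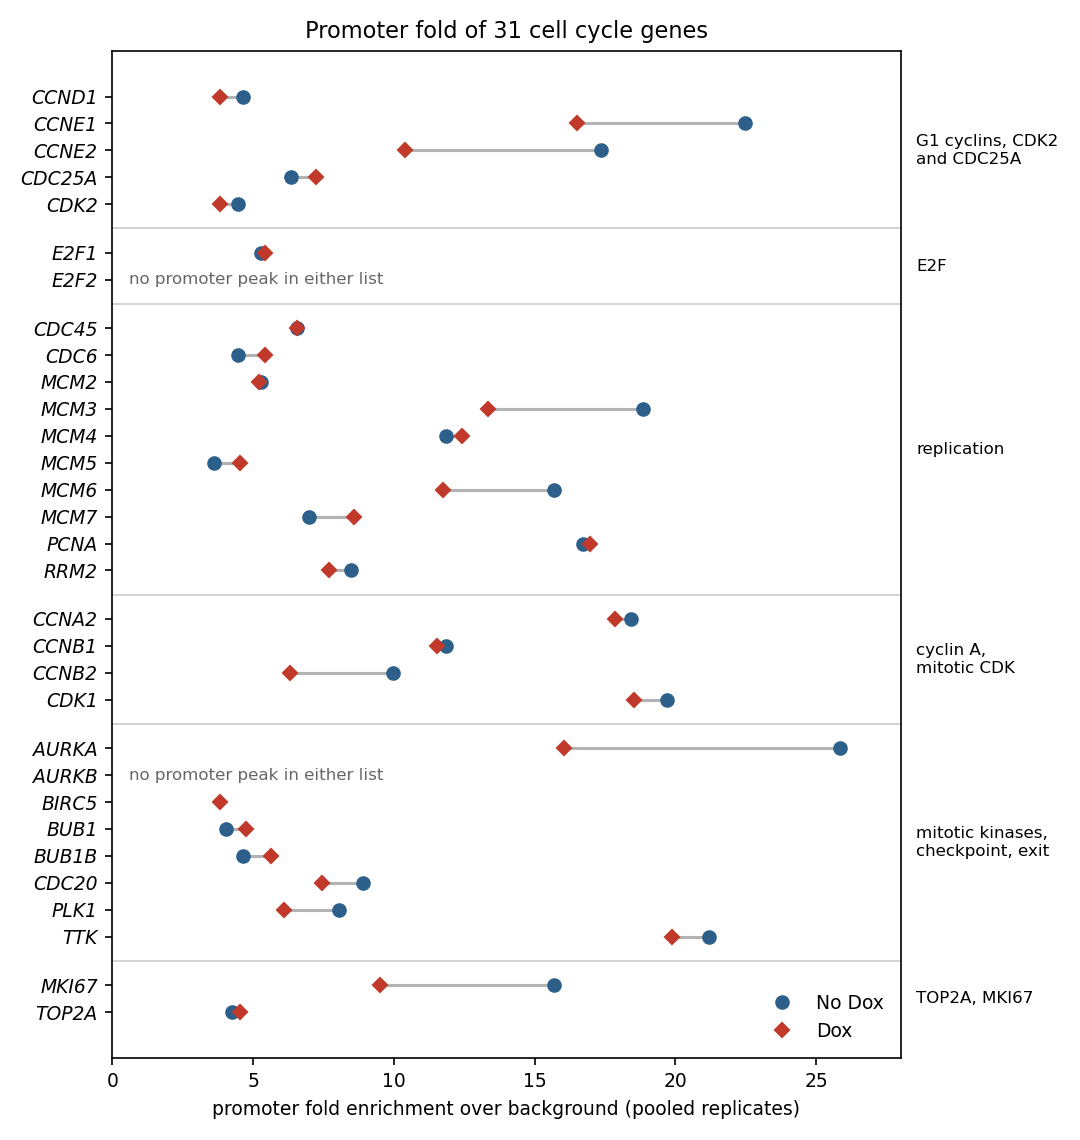
Promoter fold enrichment (x axis, authors' value for the pooled replicates) of the 31 genes by role, with blue circles for No Dox and red diamonds for Dox. AURKA, CCNE2, MKI67, CCNE1 and MCM3 show the widest gaps to the lower Dox value, and BIRC5 has a Dox value alone.

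Among the genes of G1, the E-type cyclins had the widest gaps between the lists, with the lower folds in Dox. CCNE2, an activating partner of CDK2 at the entry to S phase, had a promoter fold of 10.4 in Dox and 17.4 in No Dox, a relative log2 difference of -0.63 (95% counting interval -1.19 to -0.08). CCNE1, the other E-type cyclin, stood at 16.5 and 22.5, a difference of -0.33 whose interval (-0.78 to 0.12) spans 0. The promoter of CCNE2 lies 513 bp from a TSS of NDUFAF6, so this peak cannot be given to 1 gene. Its summit lay at -96 bp from the canonical CCNE2 TSS in Dox and at -599 bp in No Dox. The folds of CCNE2 were thus read at different points of this shared stretch. CCND1, the cyclin D1 partner of CDK4 and CDK6, stood at 3.84 in Dox and 4.66 in No Dox. CDK2 stood at 3.84 and 4.45, and a TSS of PMEL lies 85 bp from its own. CDC25A, the phosphatase that removes inhibitory phosphates from CDKs, had the higher fold in Dox, 7.23 against 6.35. Both lists thus placed CCND1 and CDK2 at the low end of the gene set and CCNE1 near the top. E2F1, the activator of S phase genes, stood at 5.43 in Dox and 5.30 in No Dox.

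Of the 10 replication genes 7 lay above the background median, and none reached 0.5 in either direction. Their median relative log2 difference was 0.12 over 10 genes. The MCM2 to MCM7 proteins form the ring of the replicative helicase, and their promoters stood on both sides of the background median. MCM5 stood at 4.52 in Dox and 3.60 in No Dox, the highest relative difference of all 28 genes at 0.44 (counting interval -0.60 to 1.497). MCM7 stood at 8.59 and 6.99, a difference of 0.41 (-0.31 to 1.14). MCM3 stood at 13.3 and 18.9, the fifth lowest value of the gene set at -0.39 (-0.89 to 0.11). MCM6 lay on the same side as MCM3, with 11.8 and 15.7, whereas MCM4 (12.4 and 11.9) and MCM2 (5.20 and 5.30) had nearly equal folds in both lists. These promoters are shared in part, since MCM2, MCM4 and MCM7 have a coding TSS of TPRA1, PRKDC and AP4M1 within 144, 7 and 121 bp.

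CDC6, which loads the MCM ring onto origins, stood at 5.43 in Dox and 4.45 in No Dox, a relative log2 difference of 0.40 (counting interval -0.53 to 1.34). CDC45, a part of the active helicase, stood at 6.56 and 6.57. PCNA, the sliding clamp of DNA polymerases, stood at 17.0 and 16.7, and RRM2, the small subunit of ribonucleotide reductase, at 7.69 and 8.47. For PCNA and RRM2 the highest peaks of the lists belonged to different start sites. At the TSS of the canonical transcript the folds were 17.0 and 15.9 for PCNA and 7.69 and 7.41 for RRM2, so RRM2 then had the higher value in Dox. PCNA and CDC45 also share their promoter windows with CDS2 and UFD1.

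Of the genes of cyclin A and mitotic CDK, CCNB2 alone reached 0.5. CCNB2, a B-type cyclin, stood at 6.33 in Dox and 9.96 in No Dox, a relative log2 difference of -0.54 with a counting interval of -1.28 to 0.18. CCNB1, the other B-type cyclin, stood at 11.5 and 11.9. CCNA2, the cyclin of S phase and G2, stood at 17.9 and 18.4, and CDK1, the mitotic kinase, at 18.5 and 19.7. Relative log2 differences of these 3 genes lay between 0.02 and 0.07, and CCNA2 and CDK1 were among the highest promoters of the set in both lists.

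The mitotic kinases and checkpoint genes spread to both sides. AURKA, the kinase of the spindle poles, had the highest No Dox fold of the set, 25.8, and a Dox fold of 16.0, a relative log2 difference of -0.57 (counting interval -1.02 to -0.14). A TSS of CSTF1 lies 34 bp from that of AURKA. BUB1B, a spindle checkpoint protein that restrains CDC20, stood at 5.65 in Dox and 4.66 in No Dox, a difference of 0.39 (-0.52 to 1.31). BUB1, a checkpoint kinase, stood at 4.75 and 4.02, a difference of 0.35 (-0.64 to 1.35). The third checkpoint gene, TTK, encodes the kinase that acts first in this pathway and had the highest Dox fold of the set, 19.9 against 21.2 in No Dox. PLK1, a kinase of mitotic entry and spindle formation, stood at 6.10 and 8.05, and CDC20, which activates the anaphase-promoting complex, at 7.46 and 8.90.

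MKI67, which encodes the proliferation marker Ki-67 at the surface of mitotic chromosomes, stood at 9.49 in Dox and 15.7 in No Dox, a relative log2 difference of -0.61 (counting interval -1.20 to -0.04). Its peak was 1092 bp wide in Dox and 1833 bp wide in No Dox. TOP2A, the topoisomerase that untangles chromosomes, stood at 4.52 and 4.24. Across the gene set the median peak width was 1014 bp in Dox and 937 bp in No Dox, with 12 peaks wider in Dox and 16 narrower, and 43.4% of all coding genes with both peaks had the wider one in Dox.

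**Figure D3:**
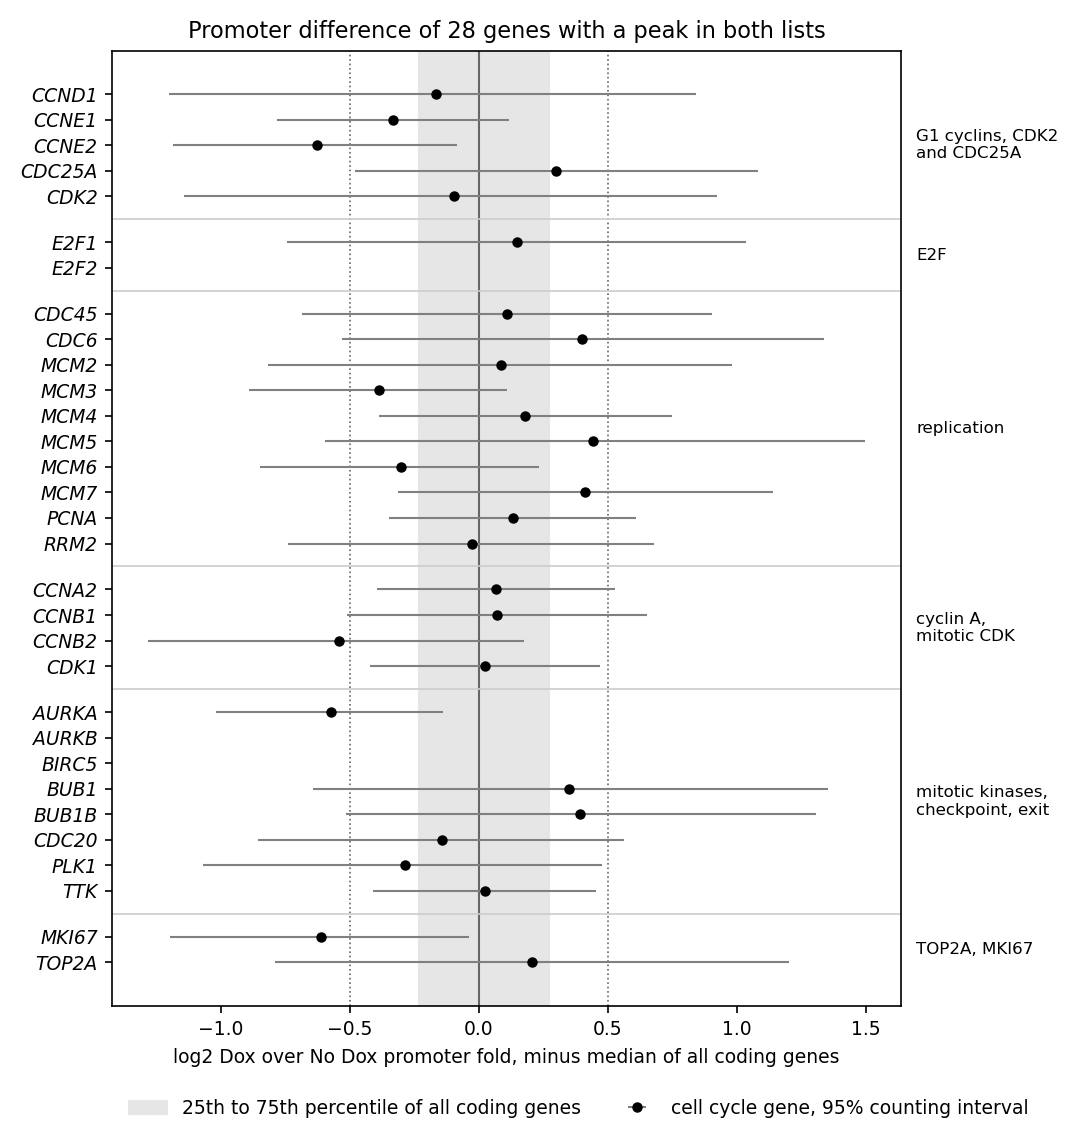
Relative log2 difference of the promoter fold (x axis) for the 28 genes with a peak in both lists, by role, with 95% counting intervals, the 25th to 75th percentile of all coding genes in grey and dotted lines at 0.5 on either side of 0. CCNE2, MKI67, AURKA and CCNB2 lie left of the dotted line, and no gene lies right of the other.

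The relative log2 difference moved with the height of the promoter itself. Over the 12474 coding genes its Spearman correlation with the mean log2 fold was -0.36, and over the 28 genes -0.53, as a description without a p since both axes hold the same folds. The median of all genes was 0.21 in the 25% of promoters with the lowest folds and -0.15 in the 25% with the highest. Set against the median of the genes in their own class of height, CCNB2 and MKI67 stood at -0.62 and -0.58, while CCNE2 and AURKA stood at -0.48 and -0.42, inside the limit of 0.5. Whether height sets the values of AURKA and CCNE2 was not tested. By motif, the 7 open promoters with E2F letters had a median of 0.15 (-0.39 to 0.41) and the 9 with CHR letters one of -0.14 (-0.61 to 0.39). PCNA is among the 7, but its RefSeq TSS lies at -6664 bp from the canonical one. Of its promoter sequence 0 bases lay under the Dox peak used and 300 under the No Dox peak. Over all coding genes the medians were -0.01 for the 372 open promoters with E2F letters and -0.04 for the 1109 with CHR letters. The ranges of the E2F and CHR genes overlapped over most of their length, and MCM6 holds both motifs.

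Fewer of these genes than of all coding genes were the nearest gene of a condition-only region. Overlapping peaks were merged across the lists into 149858 regions, of which 63 were nearest to one of the 31 genes, and a region was Dox-only or, with peaks of the other list alone, No-Dox-only. Of the 63, 15 belonged to Dox alone, 14 belonged to No Dox alone and 34 were shared. A Dox-only region was assigned to 10 genes (32.3%), against 47.3% of all coding genes, and a No-Dox-only region to 8 (25.8%), against 41.0%. Both kinds were assigned to 6 genes, and 19 genes (61.3%) had neither, against 38.2% of all coding genes. AURKA, CCNE2, CDK2, MCM2 and MCM7 were assigned no region at all, because the summit at each of these promoters was nearer to the TSS of the neighbouring gene (CSTF1, NDUFAF6, PMEL, TPRA1 and AP4M1).

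The stretch of DNA that can be assigned to a gene also differs between genes. The DNA nearest to a gene within 100 kb had a median length of 41.7 kb for the 31 genes and 59.0 kb for all coding genes. Per Mb of such DNA the gene set held 9.53 Dox-only regions (exact 95% Poisson interval 5.34 to 15.7, counting error only), against 13.9 over all coding genes. It held 8.90 No-Dox-only regions per Mb (4.87 to 14.9), against 18.5, and 21.6 shared regions (14.97 to 30.2), against 19.8. Of these rates, that of No-Dox-only regions was the one whose interval did not reach the value of all genes. The interval takes regions as independent, yet CCNE1 held 5 and MKI67 3 of the 14, so it is too narrow. Of the 29 condition-only regions 51.7% were Dox-only (exact Clopper-Pearson interval 32.5 to 70.6%), and of those of all coding genes 42.8%. When every region within 100 kb of a TSS was counted for the gene, whichever gene was nearest, the Dox-only share was 68.7% for the gene set and 55.4% for all coding genes. The median gene then had 2 Dox-only regions and 1 No-Dox-only region, in the gene set as among all coding genes.

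**Figure D4:**
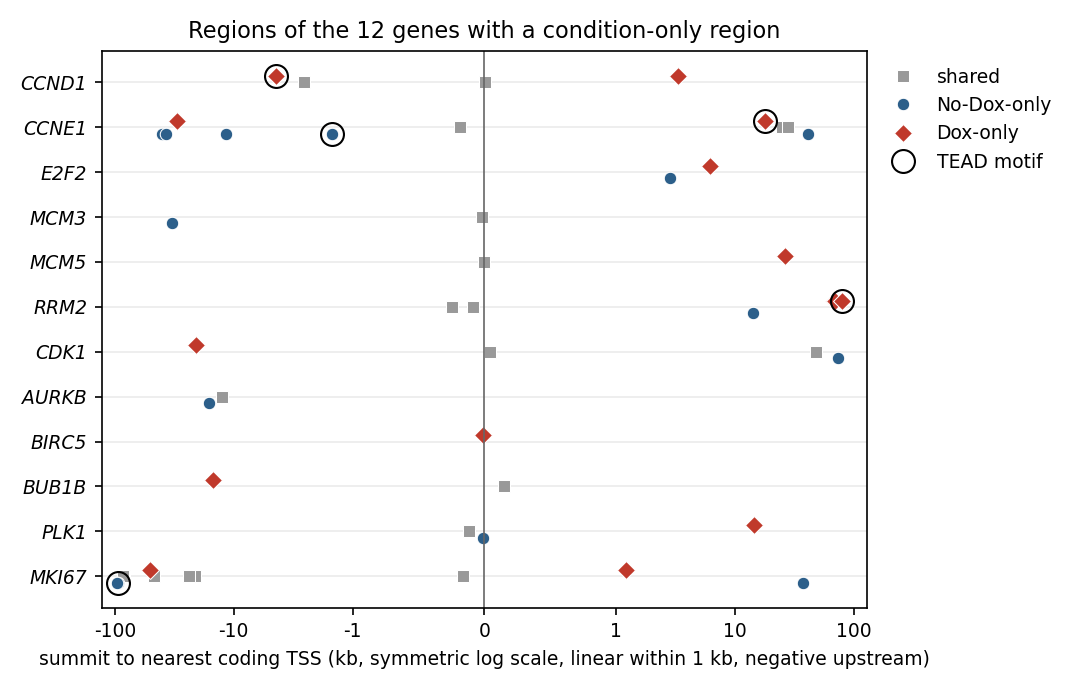
Distance from the nearest coding TSS to the summit (x axis, kb, symmetric log scale, negative upstream) of the regions of the 12 genes with a condition-only region. Regions of the Dox list alone are red diamonds, those of the No Dox list alone blue circles and shared ones grey squares, and rings mark condition-only regions with a TEAD match, which lie at CCND1, CCNE1, RRM2 and MKI67.

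CCNE1 and MKI67 held 12 of the 29 condition-only regions. Distances here and below are from the nearest coding TSS of the gene, so values for 1 gene can refer to different start sites. CCNE1 had 2 Dox-only regions, at 30.04 kb upstream (fold 2.94) and 17.9 kb downstream (fold 3.84), and 5 No-Dox-only regions. The latter lay 40.1, 37.5, 11.7 and 1.49 kb upstream and 41.0 kb downstream of its nearest TSS, with folds of 4.45, 3.60, 5.08, 3.60 and 4.02. The same locus held a shared region 27.9 kb downstream with folds of 26.9 in Dox and 30.3 in No Dox, higher than the CCNE1 promoter itself. All 7 condition-only regions of CCNE1 lay between genes.

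MKI67 had 2 Dox-only regions, 1.21 kb downstream of its TSS in an intron (fold 3.84) and 50.6 kb upstream (fold 5.65, the highest of the 15). Its 3 No-Dox-only regions lay 37.6 kb downstream and 95.4 and 96.8 kb upstream, with folds of 3.81, 2.75 and 3.39. A shared region 21.4 kb upstream had a fold of 4.07 in Dox and 9.11 in No Dox, the widest difference among the 10 shared regions outside the promoters of the gene set. MKI67 was thus lower in Dox at its promoter and at this upstream region, while 4 other shared regions upstream had Dox folds of 5.43 to 10.9 and No Dox folds of 5.30 to 13.1.

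RRM2 had 3 Dox-only regions within its gene body, 68.5, 69.6 and 79.2 kb downstream of the nearest RRM2 TSS, with folds of 3.39, 3.62 and 2.94, and 1 No-Dox-only region 14.2 kb downstream with a fold of 4.45. In GENCODE the RRM2 gene runs from 10120698 to 10211725 on chromosome 2, and these regions lie in its introns. CCND1 had 2 Dox-only regions and none of the other kind. One lay 4.43 kb upstream of the TSS (fold 4.07) and the other 3.29 kb downstream in an intron (fold 4.75). A shared region 2.57 kb upstream had a fold of 4.75 in Dox and 3.18 in No Dox. CCND1 therefore had 3 flanking regions that were higher or present alone in Dox beside a promoter that was not, at 3.84 in Dox and 4.66 in No Dox. CDK1 had a Dox-only region 20.8 kb upstream (fold 4.97), a shared region 48.1 kb downstream at 4.75 in Dox and 2.75 in No Dox, and a No-Dox-only region 74.1 kb downstream (fold 2.75).

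The other condition-only regions were single ones. BIRC5, BUB1B, MCM5, E2F2 and PLK1 had 1 Dox-only region each, with folds between 2.94 and 3.84, and AURKB, MCM3, E2F2 and PLK1 had 1 No-Dox-only region each, with folds between 2.54 and 5.08. The No-Dox-only region of PLK1 (fold 2.54, 12 steps) had its summit 14 bp from a coding TSS, beside a promoter region shared by both lists. The Dox-only region of PLK1 lay in an intron of ERN2, and the AURKB region in a UTR of CTC1. Of the 29 regions, 26 stood within 10 steps of the lowest fold of their list, and 17 lay between genes. The shares of all regions for these counts are not given here. Of the Dox-only regions 4 (26.7%) reached the median fold of the Dox list, against 29.5% of all Dox-only regions. Of the No-Dox-only regions 6 (42.9%) reached that of theirs, against 29.5% of all No-Dox-only regions. A region of this kind may thus hold a peak just under the threshold in the other list.

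TEAD letters within 100 bp of the summit were in 3 of the 15 Dox-only regions (20.0%, Clopper-Pearson interval 4.33 to 48.1%) and in 2 of the 14 No-Dox-only regions (14.3%, 1.78 to 42.8%). Genome-wide the letters were in 13.6% of regions of the former kind and in 5.72% of the latter, both inside these intervals. At this number of regions a difference from the rest of the genome was not detectable. The sites are shown because they hold the TEAD letters within 100 bp of the summit in condition-only regions of these genes, with capitals for the matches, all on the plus strand of hg38. In the regions of CCND1 and RRM2 the match occurs in a pair, with starts 9 and 21 bases apart, and reads GGAATGC or GGAATGT, the reverse complement of the letters sought.
CCND1, Dox-only (chr11:69636659-69636734): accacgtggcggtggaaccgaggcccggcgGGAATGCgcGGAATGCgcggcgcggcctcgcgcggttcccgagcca
CCNE1, Dox-only (chr19:29835076-29835142): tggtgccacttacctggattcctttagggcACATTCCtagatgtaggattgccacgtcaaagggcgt
RRM2, Dox-only (chr2:10202304-10202391): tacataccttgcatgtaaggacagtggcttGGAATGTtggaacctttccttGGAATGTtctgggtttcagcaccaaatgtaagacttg
CCNE1, No-Dox-only (chr19:29810421-29810487): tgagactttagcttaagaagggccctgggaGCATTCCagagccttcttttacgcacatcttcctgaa
MKI67, No-Dox-only (chr10:128221829-128221895): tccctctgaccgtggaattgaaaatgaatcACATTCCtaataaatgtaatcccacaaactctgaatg

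AP-1 letters were in 1 of the 15 Dox-only regions (at BUB1B), in 2 of the 14 No-Dox-only regions (at MCM3 and RRM2) and in 0 of the 34 shared regions. Over all regions AP-1 letters were in 8.12%, 11.7% and 18.4%. Of the 34 shared regions 24 had their summit within 1 kb of the TSS and 10 lay farther away. Of the 34773 shared regions of all coding genes, 22931 lay farther away. Whether this place bears on the AP-1 counts was not tested.

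A further 59 cell cycle genes, listed for their roles as inhibitors, pocket proteins, E2F partners, MuvB subunits, checkpoint kinases, origin factors and mitotic proteins, were read in the same way. A promoter peak was in both lists for 57 of them and in neither for CDKN2A and CDKN2B, inhibitors of CDK4 and CDK6 whose locus MCF10A cells are known to have lost. Their median relative log2 difference was 0.03, beside 0.05 for the 31 genes. At or above 0.5 stood 9 of the 57, or 15.8% (11% of all coding genes). At or below -0.5 stood 4, or 7.02%, close to the 7.46% of all coding genes. The highest was CDC25B, a phosphatase of mitotic entry, at 7.91 in Dox and 4.66 in No Dox (0.88, counting interval 0.05 to 1.73). CDKN1A, the p21 inhibitor of CDKs, stood at 6.10 and 4.24, a difference of 0.64 with an interval of -0.27 to 1.57. The others above were CDT1 (0.68), RBL1 (0.60), E2F4 (0.58), CENPA (0.57), FZR1 (0.54), MYBL2 (0.52) and CDKN2D (0.51).

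On the lower side of these further genes, NDC80, a kinetochore protein, stood at 6.56 in Dox and 12.1 in No Dox, a relative log2 difference of -0.77 (counting interval -1.48 to -0.09). GINS1, a helicase subunit, stood at 14.2 and 22.9 (-0.57, interval -1.05 to -0.11). CHEK1, the replication checkpoint kinase, stood at 22.4 and 35.6 (-0.56, interval -0.93 to -0.19), and WEE1, which holds CDK1 inactive, at 10.2 and 16.1 (-0.55, interval -1.12 to 0.01). Over all coding genes the median was 0.21 in the lowest class of height and -0.15 in the highest. CHEK1 and GINS1 had high folds, and CDT1 (4.07 and 2.75) and RBL1 (4.75 and 3.39) low ones. The further genes were not set against their own class of height, so whether height sets their values was not tested. Around the 59 genes the rates per Mb were 10.5 Dox-only regions (7.67 to 14.0), 6.60 No-Dox-only regions (4.42 to 9.48) and 22.3 shared regions (18.1 to 27.2). The interval of the No-Dox-only rate again lay below the value of all coding genes (18.5). These regions were also clustered, with 6 at CENPE and 5 at CCNH of 29, so the interval is too narrow and a lower rate was not tested. E2F letters were in 18.0% of their 50 promoters in the table, CHR letters in 24.0% and CCAAT boxes in 40%.

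The lists themselves held 84353 Dox and 117740 No Dox peaks, with median folds of 4.07 and 3.81. Of 8 markers of basal mammary epithelium, 6 had a promoter peak in both lists, TP63 had one with Dox alone and KRT14 had none. Of 4 immune and 4 endothelial markers, CD14 had a promoter peak in both lists and the other 7 had none in either.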

How the data were processed

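ATAC-seq was made from 4 samples of MCF10A cells, 2 per condition, and the groups were taken from the labels. Per the methods, reads were aligned by the authors with BWA (hg38), and MACS2 peaks were called on the pooled replicates of a condition (FDR 0.05). The deposited fold is a ratio of pooled signal to background at the summit. Each peak was deposited with its q-value as −log10, which was used here only to shorten the lists. No read counts come with the lists, so intervals cover counting error only.

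Peaks that overlapped or touched were merged into regions with numpy 2.4.6 and pandas 2.3.3 in Python 3.11.15. Each region went to the nearest coding TSS of GENCODE release 44 within 100 kb of the summit of its strongest peak. The promoter fold is the highest fold of a peak that overlaps the 1 kb on either side of a coding TSS. Motif letters were sought in hg38 with pysam 0.24.0, within 100 bp of summits. The genes, lists and thresholds were chosen with earlier results of these data known, and the counting interval and the comparison with promoters of similar fold after these values were seen. Full values are given for genes with a promoter peak in 1 list alone, the 5 highest and 5 lowest promoter differences and genes with 3 or more condition-only regions. The steps were tested on simulated data, where 99.9% of 3000 planted regions and 100% of 717 promoter differences were recovered. The planted peaks stood at isolated TSSs and had no noise, and most planted differences were 0. This checks the code alone, and shared promoters and peaks near the threshold were not simulated. The study's read-count comparison in bins and its other assays were not analysed here. Alternatives tried were lists cut at a q-value of 0.01 or 1e-05 or to equal length, promoter windows of 500 bp and 3 kb, other transcripts, other backgrounds and scales for the fold, stricter or wider regions, and other motif windows.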

Additional observations from a re-analysis of the deposited data

How the results depend on the processing

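Of 98 values recomputed for 11 results under these alternatives, 80 were counted as unchanged. For a count this meant within 1.5 times of the reported count, and for the share inside its interval, whichever list held more. For the median difference it meant the same sign and a move of less than 0.1 (on the percentile scale only its sign was compared). The median relative log2 difference of the 28 promoters kept its sign under every alternative but 1. Against promoters of similar fold (4 classes of equal size), chosen after seeing the data, it was -0.029 instead of 0.05, so its sign carries no weight, and 2 genes (CCNB2 and MKI67) then stood at or below -0.5. Against stronger promoters it was 0.14, and 2 genes (MCM5 and MCM7) stood at or above 0.5 and 2 (CCNE2 and MKI67) at or below -0.5. On a percentile scale with a limit of 10 points 1 gene (MCM7) stood above and 5 below, with PLK1 and CCND1 joining CCNE2, MKI67 and CCNB2, and AURKA not among them. Genes with a promoter peak without Dox alone were 2 (CCND1 and CDK2) at a q-value of 1e-05 and 1 (E2F2) with a window of 3 kb. At 1e-05 BIRC5 had no promoter peak in either list, and MCM5 had one in Dox alone. Regions were few. Those in Dox alone, in No Dox alone and in Dox alone with TEAD letters numbered 7, 6 and 1 at a q-value of 1e-05, and 4, 6 and 1 among strong regions. With a TSS within 20 kb 8 and 6 condition-only regions were in Dox and in No Dox. Counting every region within 100 kb of a TSS gave 88, 41 and 8, with each region counted once (90 and 41 where a region near 2 of the genes counts for both). The Dox-only share ran from 40% to 68.2% over the settings. All lay inside its interval (32.5 to 70.6%), which is wide enough to hold a majority for either list. No paired analysis was possible because the replicates were pooled into 1 list per condition, and for the same reason no replicate could be left out.

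With about 15 regions in each class and 17 to 122 steps behind each promoter fold, only large differences can be seen. A gene at the threshold of a list can change class by a few units of signal. Peaks at shared promoters belong to more than 1 gene.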
